A study of Rattus norvegicus with 6 samples.

Results

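The late-numbered rat microRNAs (miRNAs) are the entries named rno-miR with a number of 3000 or more, on any arm and with any letter, except miR-6216, which the rule leaves out. The deposited count table held 112 such rows among 764 listed mature miRNAs. Of these, 2 rows (miR-3084b-3p and miR-3084d) carried the same counts in all 6 libraries as miR-3084a-3p, and miR-3084b-5p carried the same counts as miR-3084c-5p, so that 109 late-numbered miRNAs remained once each such group was counted once. Rows were merged only where counts stood in at least 2 libraries. With rows at 0 also merged, 48 rows would have been left.

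The libraries came from small extracellular vesicles of the plasma of male Sprague-Dawley rats with a wild-type genotype, a laboratory stock that is not inbred, obtained at an age of 6 to 8 weeks. The diabetic group held 3 libraries from rats made diabetic by 65 mg/kg of intraperitoneal streptozotocin, which destroys pancreatic beta cells, with a fasting glucose above 11.1 mmol/L as the criterion, and described as diabetic for 8 weeks. The control group held 3 libraries from control rats, for which the labels name no injection. Vesicles of 2 ml of plasma gave the RNA, and inserts of 18 to 30 nucleotides were sequenced. Whether each library came from 1 animal or from a pool is not given in the sources used here, so p-values measure only the spread between these libraries, which may be technical.

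miRNAs are cut from RNA hairpins, whose arms are called 5p and 3p, and guide repression of messenger RNAs mainly through the seed, bases 2 to 8 of the mature strand. The registry of miRNAs gives numbers in order of discovery. High numbers therefore belong to miRNAs found late, mostly by deep sequencing, among them many that were described in rodents only. Some lie inside protein-coding genes, some overlap small nucleolar RNAs, which guide the modification of ribosomal RNA, and some lie opposite a miRNA described earlier, on the other DNA strand of the same locus.

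RefSeq sequences on the rat assembly GRCr8 matched 99 of the 112 rows. The mature strands of the most abundant late-numbered miRNAs are shown here because most of the counts fall on them, with those of miR-6319, miR-6324 and miR-5132-5p because they stood among the smallest p-values. They are written 5′ to 3′ with the seed in capitals.
miR-3473: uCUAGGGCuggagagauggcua
miR-3559-3p: aUGUAGUAcugagucugucgug
miR-3559-5p: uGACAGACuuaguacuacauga
miR-6328: aGGCCUGCucugagcccccgc
miR-6329: aAUGUGACucagcuaucugaaca
miR-6324: uCAGUAGGccagacagcaagcac
miR-6319: uCAUUCUCgcugcucuggagu
miR-5132-5p: cGUGGGGCgguggacccaggcu
In GRCr8, miR-3473 lies at chr13:42051730-42051751 on the plus strand, and the arms miR-3559-3p and miR-3559-5p lie at chrX:73660153-73660174 and chrX:73660193-73660214 on the minus strand. The submitters' processing notes name rn6 as the build of the files, which hold no coordinates, and no coordinates of that build were used.

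Most late-numbered miRNAs had no count or few counts in the vesicle libraries. Of the 109, 57 (52.3%) had no count in any library, 52 (47.7%) had at least 1 count in some library, and 17 (15.6%) had a count in all 6. Of the other 652 listed miRNAs, 511 (78.4%) were detected in some library and 362 (55.5%) in all 6. Library totals ran from 6254077 to 8930730 counts, so that a count of 0 in 1 library allowed up to 0.336 to 0.48 CPM, the count scaled to a common library total. A count of 0 in all 6 libraries allowed up to 0.0663 CPM over their summed counts. These limits cover counting error only. In name order, the first 10 at 0 throughout were miR-3065-3p, miR-3065-5p, miR-3084c-3p, miR-3099, miR-3543, miR-3546, miR-3548, miR-3549, miR-3550 and miR-3551-3p.

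More late-numbered miRNAs had a count in each diabetic library than in any control library. The numbers were 45, 37 and 35 in diabetic replicates 1, 2 and 3, and 33, 29 and 29 in control replicates 1, 2 and 3. The other 652 miRNAs had the same order, with 458, 452 and 441 detected in the diabetic libraries and 429, 408 and 410 in the control libraries. Control replicate 1, with 33 detected, was the most deeply sequenced library. Of 12 late-numbered miRNAs seen in exactly 1 library, 8 were seen in diabetic replicate 1, 2 in diabetic replicate 2, and 1 each in control replicates 1 and 2. None of the 12 had more than 4 counts. The other 652 miRNAs were not counted in this way. At a threshold of 10 counts the detected number was 17, 17 and 15 in diabetic replicates 1, 2 and 3, and 14, 14 and 13 in control replicates 1, 2 and 3. Of the other 652 miRNAs, 355, 358 and 354 reached 10 counts in the diabetic libraries and 344, 332 and 318 in the control libraries, in the same order.

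Detection did not fall evenly with the number in the name. Of 18 miRNAs numbered from 3000 to below 3500, 77.8% had a count in some library, close to the 80.3% of 493 numbered below 500. In all 6 libraries the shares were further apart, at 38.9% and 59.6%. The median total of those detected was 29.5 counts, against 452.5 for the numbers below 500. Of 66 numbered from 3500 to below 4000, 36.4% had a count and 6.06% had one in all 6 libraries. Of 23 numbered 6000 and above, with miR-6216 left out, 52.2% had a count. Both arms of miR-5132, the only entries from 4000 to below 6000, had one. These shares are descriptions of the listed entries and were not tested.

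**Figure D1:**
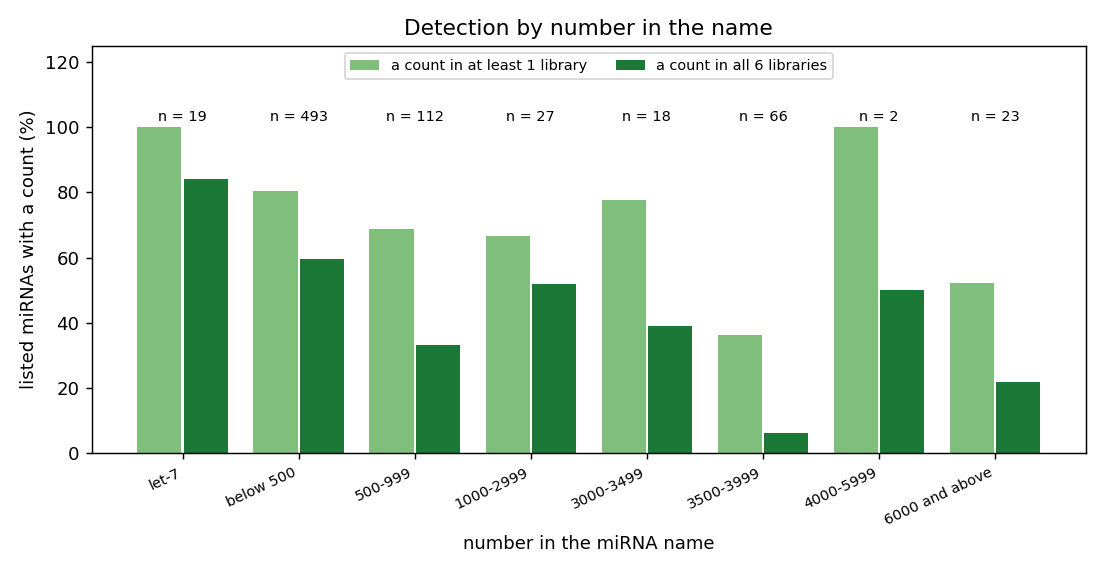
Share of listed miRNAs (%) with a count in at least 1 library (light bars) and in all 6 libraries (dark bars), by the number in the name, with the number of listed miRNAs above each pair of bars. Merged rows and miR-6216 are left out. The lowest pair of bars is that of the numbers from 3500 to below 4000, at 36.4% and 6.06%.

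Opposite-strand partners were common among the numbers from 3500 to below 4000. A run of at least 16 bases exactly complementary to a mature miRNA numbered below 3000 was found in 33 late-numbered miRNAs, 30 of them numbered from 3500 to below 4000. This length was chosen with the runs in view, and the longest run of any other late-numbered miRNA was 15 bases. Of the 33, 29 (87.9%) were at 0 in all 6 libraries, against 24 of 65 (36.9%) of the other late-numbered miRNAs with a sequence. The run length decides who is counted here. miR-3120, within the span of the miRNA gene Mir214, had 27 counts in 5 libraries. No run of this length was found for it, so it stands among the other 65. Of the 31 other miRNAs numbered from 3500 to below 4000 with a sequence, 17 were detected. No test was made of these shares.

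Some of the zeros stood opposite abundant miRNAs of the vesicles, and others opposite miRNAs at or near 0. For 13 of the 29 miRNAs at 0 the partner had 1000 counts or more over the 6 libraries, as had 193 of all 652 other listed miRNAs. The partners of miR-3065-5p, miR-3546 and miR-3575 (miR-338-3p, miR-208a-5p and miR-200c-5p) were themselves at 0. Those of miR-3595, miR-3576 and miR-3579 had 2, 8 and 10 counts. The widest gap was that of miR-3591, which lies opposite miR-122-5p, the main miRNA of hepatocytes, followed by miR-3571, opposite the striated muscle miRNA miR-1-3p. miR-3596d and miR-3596a came next, opposite let-7f-5p and let-7a-5p, miRNAs that restrain cell growth. Of these, 3 pairs are shown 5′ to 3′, with the complementary run in capitals.
miR-3591: AACACCAUUGUCACACUCCA
miR-122-5p: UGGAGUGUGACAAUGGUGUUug
miR-3571: UACACACUUCUUUACAUUCCAua
miR-1-3p: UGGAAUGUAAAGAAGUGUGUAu
miR-3596a: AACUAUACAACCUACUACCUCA
let-7a-5p: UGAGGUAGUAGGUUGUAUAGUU
miR-3591 had 0 counts in every library, while miR-122-5p had 325505, 503818 and 486150 counts in diabetic replicates 1, 2 and 3, and 187681, 296987 and 1058252 counts in control replicates 1, 2 and 3. Taking 3 counts over the 6 libraries as the limit for a count of 0, miR-3591 was at least 952798-fold lower than the 2858393 counts of miR-122-5p. By the same limit miR-3571 was at least 90195-fold lower than the 270584 counts of miR-1-3p. miR-3596a was at least 30020-fold lower than the 90059 counts of let-7a-5p, although other let-7 genes can give the let-7a-5p strand.

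Only 4 of the 33 opposite-strand miRNAs had a count. miR-3557-5p had 2 counts, both in diabetic replicate 1, against 768882 counts of its partner miR-378a-3p, a miRNA encoded in a gene of mitochondrial regulation, Ppargc1b. miR-3544 had 3 counts, all in diabetic replicate 1, against 21 counts of miR-337-5p, an imprinted miRNA of the Dlk1-Dio3 region. These 2 therefore rested on 1 library each.

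miR-3590-3p and miR-3074 were the opposite-strand miRNAs with a count in every library, and their pairs are shown for that reason, with the complementary run in capitals.
miR-3590-3p: UAGCACAAUGUGAAAAGAGCuc
miR-130a-5p: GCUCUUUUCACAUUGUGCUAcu
miR-3074: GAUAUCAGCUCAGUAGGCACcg
miR-24-1-5p: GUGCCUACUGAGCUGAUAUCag
miR-3590-3p had 18, 19 and 5 counts in diabetic replicates 1, 2 and 3, and 7, 15 and 5 counts in control replicates 1, 2 and 3. Its partner miR-130a-5p, the rare arm of the miR-130a hairpin, had 3 counts in all, every one in diabetic replicate 2, so that here the late-numbered strand was the higher of the pair. The other arm of the same late-numbered hairpin, miR-3590-5p, was at 0, opposite the 622 counts of the main arm miR-130a-3p. miR-3074 had 9, 18 and 23 counts in diabetic replicates 1, 2 and 3, and 10, 2 and 3 counts in control replicates 1, 2 and 3, a total of 65 against 1340 of miR-24-1-5p. Control replicate 1 lay among the diabetic libraries in miR-3074 counts, so the groups overlapped. miR-3074 did not pass the filter, which scales its minimum of 10 counts to library size. Control replicate 1, with its 10 counts, was the most deeply sequenced library.

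**Figure D2:**
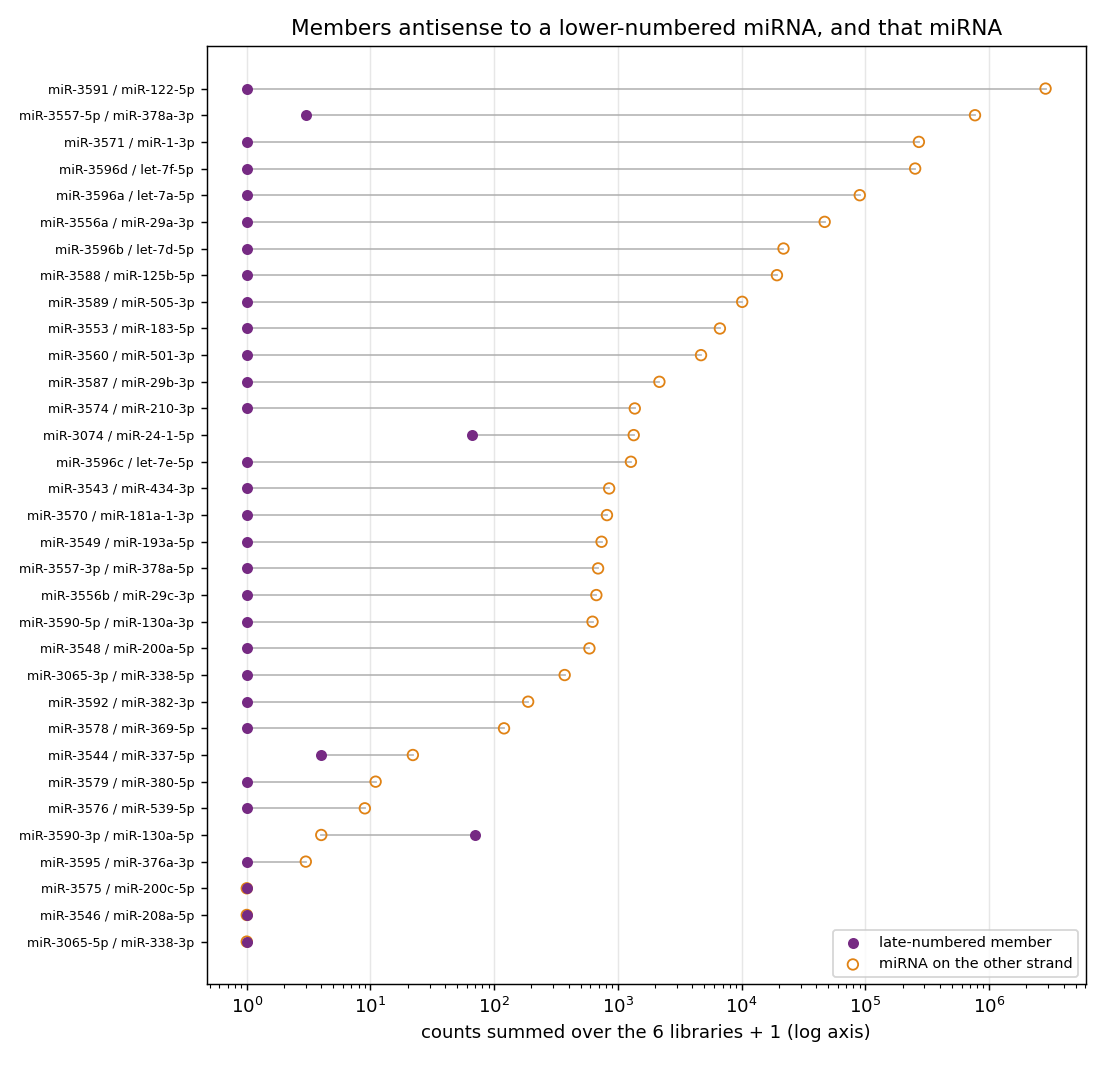
Counts summed over the 6 libraries plus 1, on a log axis, of the 33 late-numbered miRNAs with an opposite-strand partner (filled points) and of that partner (open points), ordered by the partner. All but 4 filled points lie at 0 counts, and miR-3590-3p is the one late-numbered strand that lies above its partner.

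The late-numbered miRNAs held 0.404% of all counts (182732 of 45217502). Their share was 0.593%, 0.481% and 0.478% in diabetic replicates 1, 2 and 3, and 0.219%, 0.383% and 0.277% in control replicates 1, 2 and 3. The diabetic and control libraries did not overlap in this share of deposited counts, with diabetic the higher, and the means were 0.517% ± 0.0657 in diabetic and 0.293% ± 0.0828 in control libraries (SD, n = 3 each). A share moves with what the most abundant miRNAs take up. The scaling factors of the trimmed mean of M values (TMM), which correct for that, ran from 1.12 to 1.27 in diabetic and from 0.702 to 0.978 in control libraries. On the scaled values used for the test the groups overlapped for each of the 5 most abundant late-numbered miRNAs.

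As shares of counts, platelet and leukocyte marker miRNAs were higher in the same libraries. Without TMM scaling the median log2 fold change of all tested miRNAs, diabetic over control, was itself 0.61. These marker shares are not scaled. The 3 platelet markers (miR-223-3p, which is also abundant in neutrophils, miR-126a-3p and miR-199a-3p) together took 0.82% to 1.37% of counts in diabetic and 0.379% to 0.466% in control libraries. The 3 leukocyte markers (miR-142-3p, miR-142-5p and miR-150-5p) took 0.671% to 0.864% in diabetic and 0.186% to 0.539% in control libraries. The 4 erythrocyte markers (miR-451-5p, miR-486 and both arms of miR-144) took 5.11% to 8.84% and 7.01% to 18.3%, and the 2 hepatocyte markers (both arms of miR-122) took 4.35% to 6.63% and 2.1% to 16.2%, in diabetic and control libraries. No marker was at 0 over the libraries, and the part of these sources in the late-numbered share was not tested. A vesicle marker cannot be checked in a miRNA table.

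The share rested on few members. miR-3473 alone held 70.6% of the late-numbered counts, and miR-3473, both arms of miR-3559, miR-6328 and miR-6329 together held 98.2%. Of the 52 detected, 16 had at most 9 counts over the 6 libraries, 24 had at least 10 but under 100, 7 had at least 100 but under 1000 and 5 had 1000 or more.

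miR-3473 ranked 40 of 362 tested miRNAs by its mean level. It had 3744, 2695 and 2536 normalized CPM (CPM of the TMM-scaled library) in diabetic replicates 1, 2 and 3, and 1545, 2987 and 3039 normalized CPM in control replicates 1, 2 and 3. Control replicate 1 was the lowest library, and the other control libraries lay within the range of the diabetic ones. As background, the middle of its sequence resembles the start of the B2 short interspersed elements, repeats spread through rodent genomes. Its 16-letter core gggctggagagatggc (bases 5 to 20, DNA letters) was found on either strand in 85 of 33469 promoter windows of RefSeq (0.254%), each 250 bases before to 50 bases after a gene start. The full 22 bases of miR-3473 were found in 0 of these windows. Bases 5 to 20 of the other 44 detected late-numbered miRNAs with a sequence, or base 5 to the end in shorter strands, were found in 0 windows. How the authors assigned reads that fit several loci is not given in the sources used here. Whether reads from similar copies elsewhere entered the miR-3473 count was not tested.

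miR-3559, whose hairpin lies within the span of the palmitoyltransferase gene Zdhhc15, gave both arms at high levels. miR-3559-3p had 619.7, 729 and 1203 normalized CPM in diabetic replicates 1, 2 and 3, and 691, 562.2 and 542 normalized CPM in control replicates 1, 2 and 3. miR-3559-5p had 128, 146.1 and 150.3 normalized CPM in diabetic replicates and 154.1, 161.4 and 119.8 normalized CPM in control replicates, in the same order. The groups overlapped for both arms, and diabetic replicate 3 was the highest library for the 3p arm.

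miR-6328 and miR-6329 lie within the spans of Ppp1r18, which encodes a regulatory partner of protein phosphatase 1, and of Rdx, which encodes the membrane and actin linker radixin, in each case on the strand opposite to the gene in RefSeq. miR-6328 had 46.01, 56.65 and 178 normalized CPM in diabetic replicates 1, 2 and 3, and 184.8, 94.53 and 127.7 normalized CPM in control replicates 1, 2 and 3. Diabetic replicate 3 lay with the control libraries and not with the other diabetic ones. miR-6329 had 50.09, 93.62 and 114.9 normalized CPM in diabetic replicates and 90.3, 30.75 and 42.92 normalized CPM in control replicates, in the same order, and the groups overlapped.

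**Figure D3:**
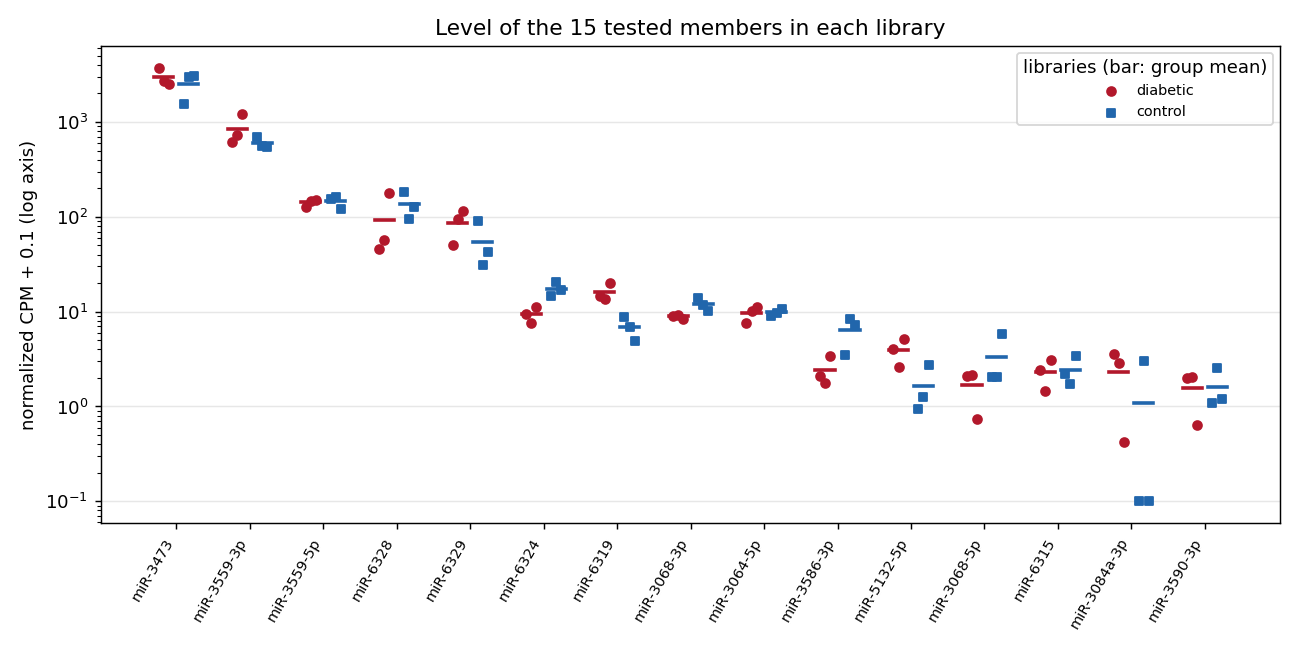
Normalized CPM plus 0.1, on a log axis, of the 15 late-numbered miRNAs that passed the filter, in each of 3 diabetic (circles) and 3 control (squares) libraries, with the group mean as a bar. The levels run from miR-3473 with a mean of 2758 normalized CPM over the 6 libraries to miR-3590-3p with 1.48.

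The comparison of diabetic with control libraries asked how the vesicle miRNAs of rats diabetic for 8 weeks stand against those of control rats. Of the 109 late-numbered miRNAs, 15 passed the filter on low counts (filterByExpr, a minimum of 10 counts scaled to library size in enough libraries). Of these, 0 were called by the edgeR quasi-likelihood test at a Benjamini-Hochberg adjusted p of 0.05 over the 362 miRNAs tested. Over all tested miRNAs 1.66% were called, 0.552% higher and 1.1% lower. At an unadjusted p of 0.05, 4 of the 15 stood below the threshold, 2 higher (miR-6319, miR-5132-5p) and 2 lower (miR-3586-3p, miR-6324) in diabetic libraries, against 22.7% of all tested, of which 11% were higher and 11.6% lower. DESeq2 called 1 of the 15, miR-6319, against 11.6% of all tested, and limma-voom called 0, against 1.1% of all tested. Of the 15, 6 had a log2 fold change above 0 and 9 below, with a median of -0.04, beside 0.02 over all tested miRNAs. The groups did not overlap for 4 of the 15, 1 higher and 3 lower, against 27.9% of all tested, 13.3% higher and 14.6% lower.

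miR-6319, within the span and on the strand of Exoc2, a subunit of the exocyst that tethers secretory vesicles to the plasma membrane, had the smallest p of the 15. It had 14.57, 13.57 and 20.16 normalized CPM in diabetic replicates 1, 2 and 3, and 8.65, 6.71 and 4.79 normalized CPM in control replicates 1, 2 and 3. The lowest diabetic library lay above the highest control library. The log2 fold change was 1.25 (SE 0.40), and the edgeR quasi-likelihood test gave a Benjamini-Hochberg adjusted p of 0.112 (n = 3 each). With library size as the only scaling, under which 13.5% of all tested miRNAs were called, it was called too, at a log2 fold change of 1.79 and an adjusted p of 0.0317 in the same test, and DESeq2 gave 1.22 with an adjusted p of 0.0411. Over all alternatives its adjusted p ran from 0.0317 to 0.29.

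miR-5132-5p lies within the span and on the strand of Irak1, a kinase of interleukin 1 and Toll-like receptor signalling. It had 3.98, 2.49 and 5.09 normalized CPM in diabetic replicates 1, 2 and 3, and 0.837, 1.14 and 2.61 normalized CPM in control replicates 1, 2 and 3. Control replicate 3 lay just above diabetic replicate 2, so the groups overlapped. The log2 fold change was 1.37 (SE 0.61), with an adjusted p of 0.21 by edgeR quasi-likelihood, and 1.95 with an adjusted p of 0.0511 with library size only, the lowest of a range up to 0.457 over the alternatives.

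miR-3586-3p and miR-6324 were the 2 below the unadjusted threshold with lower levels in diabetic libraries. miR-3586-3p had 1.99, 1.66 and 3.29 normalized CPM in diabetic replicates 1, 2 and 3, and 3.35, 8.34 and 7.19 normalized CPM in control replicates 1, 2 and 3. Control replicate 1 lay close above diabetic replicate 3, although the groups did not overlap. The log2 fold change was -1.43 (SE 0.53), with an adjusted p of 0.148 by edgeR quasi-likelihood, and -0.92 with library size only. Over the alternatives its adjusted p ran from 0.0516, without control replicate 1 in the same test, to 0.397, without control replicate 2. Its counts before scaling, 19, 16 and 31 in diabetic and 24, 51 and 33 in control replicates 1, 2 and 3, overlapped.

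miR-6324, within the span and on the strand of the chromatin reader gene Brwd1, had 9.43, 7.46 and 11.03 normalized CPM in diabetic replicates 1, 2 and 3, and 14.66, 20.61 and 16.99 normalized CPM in control replicates 1, 2 and 3. Its groups did not overlap either. The log2 fold change was -0.90 (SE 0.37), with an adjusted p of 0.176 by edgeR quasi-likelihood, and -0.37 with library size only. Over the alternatives its adjusted p ran from 0.0841, without control replicate 1 in the same test, to 0.538, with library size only. Its counts before scaling were 90, 72 and 104 in diabetic and 105, 126 and 78 in control replicates 1, 2 and 3, which overlapped, so that the groups were apart on the scaled values only.

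None of the other 11 tested members had an unadjusted p under 0.05. miR-3068-3p, whose hairpin RefSeq lists under the small nucleolar RNA name Snora58, within the demethylase gene Alkbh1, had 8.91, 9.22 and 8.28 normalized CPM in diabetic replicates 1, 2 and 3, and 13.68, 11.77 and 10.02 normalized CPM in control replicates 1, 2 and 3. These scaled values did not overlap, while the log2 fold change of -0.43 (SE 0.36) had an adjusted p of 0.492 by edgeR quasi-likelihood and turned to 0.13 with library size only. The log2 fold changes of miR-3559-3p, miR-6329, miR-3473, miR-6328 and miR-3068-5p were 0.51 (SE 0.35), 0.66 (SE 0.48), 0.25 (SE 0.37), -0.54 (SE 0.53) and -0.99 (SE 0.68). With library size only, miR-3559-3p stood at 1.05 with an adjusted p of 0.0691, the lowest of a range up to 0.739 over its alternatives, and miR-3473 stood at 0.81. Those of miR-3064-5p, miR-3559-5p, miR-3590-3p and miR-6315 lay between -0.06 and -0.02, with standard errors of 0.33 to 0.71, and all 4 turned positive with library size only. Without diabetic replicate 3 the log2 fold change of miR-6328 was -1.35, with an adjusted p of 0.0733 in the same test. Without control replicate 1 that of miR-6329 was 1.21, with an adjusted p of 0.0862. These 2 were the lowest adjusted p over the alternatives, which reached 0.9998 for miR-6328 and 0.733 for miR-6329.

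The less abundant of these overlapped between groups. miR-3064-5p had 7.55, 10.15 and 11.03 normalized CPM in diabetic replicates 1, 2 and 3, and 8.93, 9.65 and 10.67 normalized CPM in control replicates 1, 2 and 3, a nearly even level. miR-3068-5p had 1.99, 2.07 and 0.637 normalized CPM in diabetic replicates and 1.95, 1.96 and 5.66 normalized CPM in control replicates, in the same order. Its lowest and highest libraries were both replicate 3, of the diabetic and the control group. miR-6315, within the span and on the strand of Vps51, a subunit of endosome tethering complexes, had 2.31, 1.35 and 2.97 normalized CPM in diabetic replicates 1, 2 and 3, and 2.09, 1.64 and 3.27 normalized CPM in control replicates 1, 2 and 3.

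**Figure D4:**
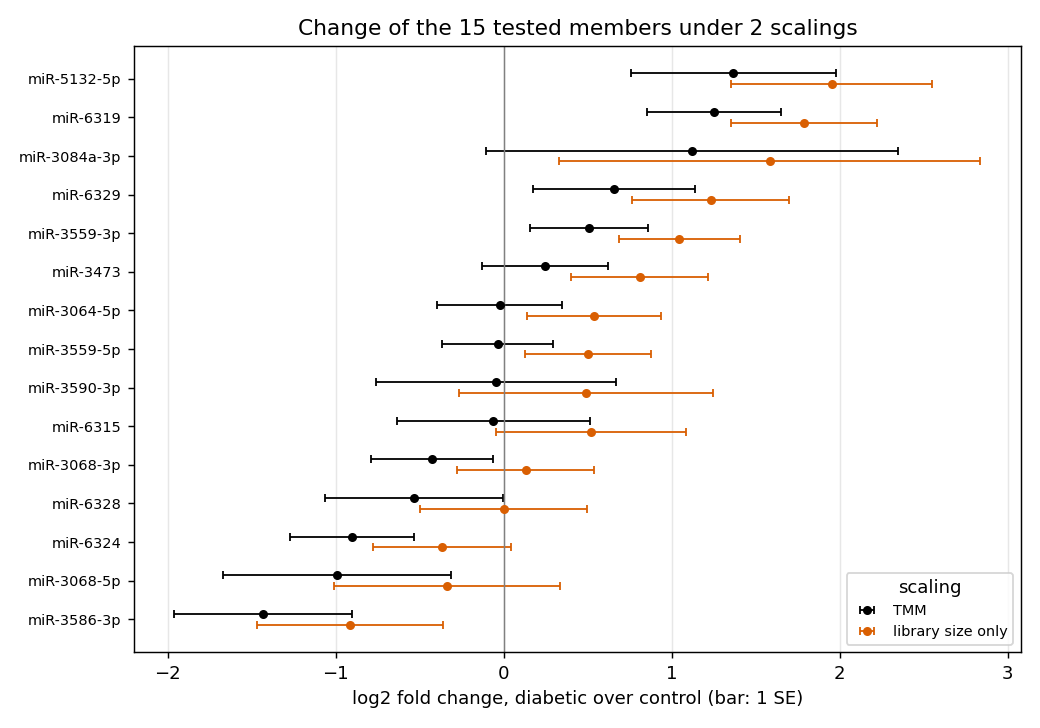
Log2 fold change of diabetic over control libraries, with 1 SE, for the 15 tested late-numbered miRNAs under TMM scaling (black) and with library size as the only scaling (orange). Under the second scaling the values lie higher throughout, in step with the median of all tested miRNAs, which was 0.61 there and 0.02 under TMM.

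miR-3084 is a small family with copies on several chromosomes. RefSeq gives miR-3084a-3p and miR-3084d the same 22 bases, shown here because these rows also have identical counts, with the seed in capitals.
miR-3084a-3p: uUCUGCCAguccccuucagaca
miR-3084d: uUCUGCCAguccccuucagaca
The first has 2 loci, on chromosomes 6 and 19, and the miR-3084d hairpin on chromosome 7 carries the small nucleolar RNA name Snora19. Their shared counts were 33, 27 and 3 in diabetic replicates 1, 2 and 3, and 0, 18 and 0 in control replicates 1, 2 and 3. Control replicate 2 held all control counts, so the groups overlapped and the log2 fold change of 1.12 had an SE of 1.23. With control replicate 2 left out, no control count remained and no fold change is given.

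Seeds of the tested members were compared with those of miRNAs numbered below 3000, except miR-3064-5p and miR-3586-3p, which had no RefSeq sequence. None of the 13 tested members with a sequence shared its seed with a miRNA numbered below 3000. In the whole group 4 did: miR-3065-5p with miR-7a-1-3p, miR-3084c-3p with miR-192-3p, miR-3573-5p with miR-423-5p, and miR-3596d with let-7 passenger strands such as let-7a-1-3p. All 4 were at 0 in every library. Aligned without gaps, no tested member with a sequence had more than 15 bases in common with a listed miRNA outside the group. The mature strands were 18 to 25 bases long, with a median of 22, and began with U in 18 of 45 detected members and in 19 of 53 members at 0.

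Arms were compared for the 7 hairpins with both arms listed and at least 1 arm past the filter, by the log2 ratio of the 5p to the 3p count, each plus 1, within a library, which needs no scaling between libraries. The 3p arm held 84.0% of the arm counts of miR-3559, 82.8% of those of miR-3068, 93.0% of those of miR-3586 and all 69 of those of miR-3590. In miR-3064, from within the RNA helicase gene Ddx5, and in miR-5132 the 3p arm held 3.46% and 1.46%. miR-3559 was the only hairpin with more than 1000 counts on each arm. Its 3p share was 82.9%, 83.3% and 88.9% in diabetic replicates 1, 2 and 3, and 81.8%, 77.7% and 81.9% in control replicates 1, 2 and 3. Every diabetic library thus leaned further to the 3p arm than any control library.

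The mean log2 ratio of the miR-3559 arms was -2.53 ± 0.407 in diabetic and -2.05 ± 0.214 in control libraries (SD, n = 3 each), a difference of -0.48. The exact permutation test (two-sided) returned p = 0.1, the smallest that 3 libraries against 3 can give, and 0.35 after Benjamini-Hochberg adjustment over the 7 hairpins. Without diabetic replicate 3 the difference was -0.25. The ratio of miR-3586 was set by few counts, on a 5p arm with 3, 2 and 5 counts in diabetic replicates 1, 2 and 3, and 3, 0 and 0 counts in control replicates 1, 2 and 3. Its groups were apart only through the added 1, since the 3p share was 88.9% in both diabetic replicate 2 and control replicate 1, and no test is given. miR-3064, with 16 counts on its 3p arm, overlapped with 1 added, while its 3p share was 10%, 4.85% and 1.89% in diabetic replicates 1, 2 and 3, and 1.54%, 0% and 0% in control replicates 1, 2 and 3. With 0.5 added the groups of miR-3064 were apart too, at a difference of -2.10. For the other 4 hairpins the groups overlapped with 1 added. Arm ratios of hairpins outside the late-numbered group were not computed, so how often groups lie apart over all hairpins is not known.

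**Figure D5:**
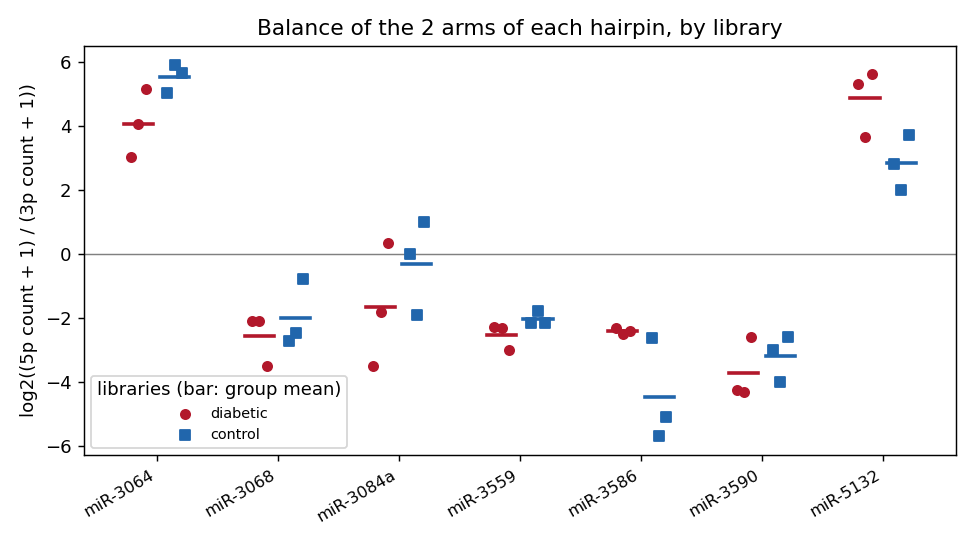
Log2 ratio of the 5p count plus 1 to the 3p count plus 1 in each of 3 diabetic (circles) and 3 control (squares) libraries for 7 late-numbered hairpins, with the group mean as a bar. Values below 0 mean more 3p than 5p counts, and the groups do not overlap for miR-3559. The gap of miR-3586 is made by the added 1, because its 3p share was 88.9% in 1 library of each group.

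Below the filter, 37 members were detected but not tested, with totals of 1 to 65 counts. Without the filter, edgeR quasi-likelihood called 0 of the 52 detected members, against 1.59% of all 566 miRNAs in that fit. An unadjusted p under 0.05 was found for 4 members, the same 4 as with the filter, against 17.8% of all.

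The authors' deposited table gave a false discovery rate of 0.0092 for miR-6319 and 0.0342 for miR-5132-5p, the only 2 of 109 late-numbered miRNAs below 0.05 there, against 8.25% of all 764 listed. Which test gave these values is not settled, since the series text names DEGseq and the deposited table edgeR. Its log2 fold changes for them, diabetic over control, were 1.79 and 1.95, which are ratios of mean CPM without scaling beyond library size. In the same deposited table, 12 late-numbered miRNAs with counts in only 1 of the groups had log2 fold changes of 5.20 to 7.74 in size, because a group mean of 0 was written as 0.001. None of the 12 had more than 4 counts in all. The largest was -7.74 for miR-3072, which had 4 counts in control replicate 2 and none elsewhere. The 40 late-numbered miRNAs with counts in both groups reached at most 4.16 in size in that deposited table.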

How the data were processed

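The authors deposited 2 tables with the counts of each mature miRNA in the 6 libraries, unscaled whole numbers that were equal in all 4584 cells. The second also holds, per the file headers, the authors' CPM, their log2 fold change of mean CPM, and their p-value and false discovery rate. The submitters' processing notes name rn6 as the genome build. The aligner, counter, miRNA annotation and treatment of multiply matching reads are not given in the sources used here. The deposited counts were used for every test.

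Members and lists were chosen with earlier results of these data known. All 764 rows entered filterByExpr (minimum count 10, minimum total 15) and TMM scaling (log ratio trim 0.3, sum trim 0.05). Diabetic against control was tested with edgeR 4.0.16 (R 4.3.3, quasi-likelihood, two-sided), with Benjamini-Hochberg adjustment over 362 miRNAs. Alternatives used DESeq2 1.42.0 and limma 3.58.1. All 3 were run on simulated data with changes larger than those of the tested members in the main fit. Such a run says nothing on changes of the size seen here. Standard errors of the edgeR fits are the absolute log2 fold change over the square root of F. Normalized CPM are relative levels, not amounts per volume of plasma. Fewer vesicles and less RNA per vesicle cannot be told apart.

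The naming rule took the 12 members with the highest mean and up to 6 more by p, which covered all 15 tested members, and members with both arms, a shared seed or an opposite-strand partner. RefSeq (GRCr8) gave sequences and enclosing genes by symbol. Replicates were distinct libraries: chi-square per degree of freedom was at least 795.8 within groups. Counts include any PCR duplicates.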

Additional observations from a re-analysis of the deposited data

How the results depend on the processing

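The call of 0 late-numbered miRNAs became 1 (miR-6319) with library size only and with DESeq2, and stayed 0 under the RLE and upper quartile factors, no filter, limma-voom, merged identical rows and each left-out library (range 0 to 0). Over all tested miRNAs the same settings gave 49, 42, 4, 2, 9, 4 and 6 calls, against 6. Without control replicate 1 they were 49, without diabetic replicate 3 they were 22, and without any other single library 0. The median of all log2 fold changes was 0.61 with library size only and -0.28 under upper quartile scaling. The log2 fold changes of miR-3064-5p, miR-3068-3p, miR-3559-5p, miR-3590-3p and miR-6315 turned to 0.53, 0.13, 0.50, 0.49 and 0.52 with library size only. That of miR-3064-5p was 0.0039 without the filter, and that of miR-3473 was -0.093 with upper quartile factors. Leaving out 1 library gave ranges across 0 for miR-3064-5p (-0.11 to 0.12), miR-3473 (-0.033 to 0.38), miR-3559-5p (-0.18 to 0.046), miR-3590-3p (-0.33 to 0.50) and miR-6315 (-0.29 to 0.22). The cause was not tested. Of 210 such values, 192 kept their sign and side.

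The numbers detected in any and in all libraries, 52 and 17, were 21 and 11 at 10 counts, and 28 and 11 at 1 CPM. They ranged from 44 to 52 and from 17 to 20 without 1 library, a setting chosen after seeing the data. The difference in share of counts, 0.224 percentage points, was 0.0662 without miR-3473 and 0.322 of counts without the 5 most abundant miRNAs, and 0.186 to 0.269 without 1 library. Of the 7 hairpins, 2 had arm ratios that did not overlap with 1 added to each count, including miR-3586, whose 3p shares tie between groups. The number was 3 with 0.5 added, and 2 to 4 without 1 library, with 4 without diabetic replicate 3. Arm ratios of hairpins outside the group were not computed, so these numbers have no share over all hairpins beside them.

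Replicate numbers are shared between the groups with no stated link. Deviations of same-numbered libraries correlated at 0.31, -0.04 and 0.23, so they were not taken as pairs, and diabetic replicate 2 correlated best with control replicate 3. A fit with the replicate number as a block called 57 of 362 miRNAs and 0 late-numbered ones. The 37 detected late-numbered miRNAs below the filter were tested only in the fit without it.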
